A study of Homo sapiens with 3 samples.

Results

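The genes described here encode the subunits of the integrin receptors and the chains of the laminins. They were taken by symbol, as every gene of the deposited table named ITGA with a number or letter, ITGB1 to ITGB8, or LAMA, LAMB or LAMC with a number. The rule took 38 of 29689 symbols, and 37 of them are described. By the known place of each protein they were divided into 4 genes of the hemidesmosome and its ligand laminin-332, 7 other epithelial integrins, 9 other laminin chains, 8 leukocyte integrins, and 9 integrins of stromal, vascular, muscle or platelet cells. Levels were known for 3 human tumors of SUM-149, an established triple-negative breast cancer (TNBC) cell line, grown from cells mixed with Matrigel in the mammary fat pads of female Nu/Nu nude mice. The groups were vehicle, dinaciclib (a CDK2 inhibitor, CDK2i) for 10 days and EPZ6438 (an EZH2 inhibitor, EZH2i) for 10 days, and the study asked what blocking CDK2 or EZH2 does to the basal-like state of such tumors. All 3 groups share the same cell line and host, and nude mice lack mature T cells while keeping other leukocytes, stroma and vessels.

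An integrin is a pair of membrane proteins, 1 α and 1 β subunit, which binds matrix outside the cell and the cytoskeleton inside it. A laminin is a trimer of 1 α, 1 β and 1 γ chain and is the main glycoprotein of basement membranes. In the basal layer of the mammary gland and the skin, integrin α6β4 holds the cell to laminin-332, a trimer made by the epithelial cell itself, and is tied on the inner side by plectin and by the protein encoded by DST to keratin filaments. Integrin α6β4 and laminin-332 are well known in basal-like breast tumors. Most other integrins share the β1 subunit or pair with αV, while the β2 integrins are restricted to leukocytes and αIIbβ3 to platelets.

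The values were log2 FPKM, fragments scaled to gene length and to the size of the library, so that levels of different genes were compared per length. The gene lengths used are not given, and ranks, ratios and shares between genes depend on them. The annotated exons of ITGB1 cover 14561 bases and its canonical transcript 3735, against 6761 and 5896 for ITGB4. Each group was 1 library, of about 16786000 (vehicle), 19142000 (CDK2i) and 17523000 (EZH2i) fragments, and whether a library held 1 tumor or a pool is not given in the sources used here. No error between tumors could be estimated, no p-value was possible, and each difference stands between a pair of libraries. A gene was called higher or lower when it differed by more than 2-fold and its larger value exceeded log2 FPKM 3, the limits that the study used beside a p-value. Counting intervals (95%, exact binomial) cover counting error only. The median difference over 11109 expressed genes was -0.11 for CDK2i and 0.19 for EZH2i on the log2 scale. Across 9397 genes the EZH2i difference ran with the GC content of the transcript (Spearman's rho = -0.58, against 0.03 for CDK2i). It also ran with transcript length (rho = 0.49, against 0.09 for CDK2i). EZH2i differences are therefore also given with the joint trend over GC content and transcript length removed.

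The tumors carried basal epithelial markers and also luminal or simple epithelial ones. Levels of KRT5 were 10.87, 12.04 and 10.69 in vehicle, CDK2i and EZH2i (log2 FPKM), and those of KRT14 were 11.26, 12.61 and 11.31. Of the luminal or simple epithelial markers, KRT8 was at 7.405, 7.65 and 6.92 and KRT18 at 4.89, 5.40 and 5.13. EPCAM was at 6.05, 6.21 and 6.34 and CDH1 at 5.025, 5.49 and 5.37. PTPRC, CD3E and CD68, which define leukocytes, stayed below log2 FPKM -4 or at 0 in every library, and the 5 leukocyte markers together summed to between 0.46 and 0.69 FPKM. The 3 endothelial markers in the table summed to between 0.47 and 0.83 FPKM. The 6 fibroblast markers summed to 24.4, 38.3 and 28.8 FPKM in vehicle, CDK2i and EZH2i, nearly all from COL1A1, LUM, COL3A1 and DCN, while PDGFRB lay below log2 FPKM -2 in each tumor. Reads had been aligned to the human genome, and how many came from mouse host cells was not tested.

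**Figure D1:**
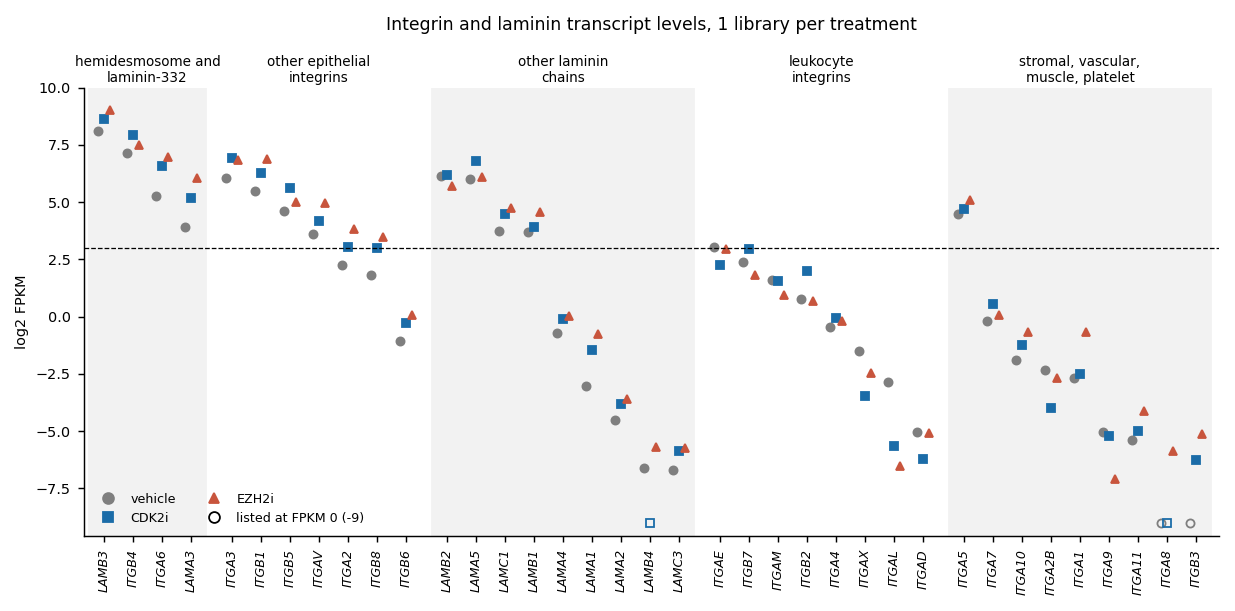
Level of each of the 37 genes in the 3 tumors, as log2 FPKM on the vertical axis, with 1 point per library and the genes ordered within each set by their vehicle level. The dashed line is log2 FPKM 3, which all 4 hemidesmosome genes exceeded in every tumor and which 1 of 8 leukocyte integrins exceeded in any, while open symbols at the bottom mark a listed FPKM of 0.

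Of the 37 genes, 16 were above log2 FPKM 3 in at least 1 tumor and 21 were not. These 16 were all 4 hemidesmosome genes, 6 of 7 other epithelial integrins, 4 of 9 other laminin chains, 1 of 8 leukocyte integrins and 1 of 9 stromal, vascular, muscle and platelet integrins. The vehicle tumor held the lowest of the 3 values for 14 of the 16, the exceptions being ITGAE, lowest in CDK2i, and LAMB2, lowest in EZH2i. The EZH2i tumor held the highest value for 10 and the CDK2i tumor for 5. Of all expressed genes, 41.9% were higher in CDK2i than in vehicle and 61.5% were higher in EZH2i than in vehicle. In EZH2i against CDK2i, 66.9% were higher. The shares of all genes with vehicle lowest or EZH2i highest of the 3 were not counted. All 16 had to exceed the limit somewhere to be counted, so these numbers describe the expressed genes and not the family as a whole. ITGA2 and ITGB8 exceeded it in the treated tumors alone, and ITGAE in vehicle alone.

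The 4 genes of the hemidesmosome and laminin-332 were higher in both treated tumors than in vehicle. On GRCh37 they are ITGA6 (chr2:173292082-173371187), ITGB4 (chr17:73717408-73753899), LAMA3 (chr18:21269417-21536186) and LAMB3 (chr1:209788215-209825770, minus strand). LAMB3, which encodes the β3 chain, was the most abundant of the 37 in each tumor, with log2 FPKM values of 8.09, 8.63 and 9.03 in vehicle, CDK2i and EZH2i, and only 0.61% of the symbols in the table lay at or above it in vehicle. ITGB4, the β subunit of the hemidesmosome integrin, stood at 7.15, 7.95 and 7.51 and was the only one of the 4 that was highest in CDK2i. The α chain and the α subunit were the less abundant parts of the ligand and of the receptor. ITGA6, which encodes α6 and pairs with β4 or β1, was at 5.25, 6.57 and 6.98, and LAMA3, the α3 chain that integrins bind, was at 3.91, 5.17 and 6.06.

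In CDK2i, ITGA6 was 2.49-fold higher than in vehicle (counting interval 2.40 to 2.58) and LAMA3 2.39-fold (2.30 to 2.48). These 2 of the 4 were called, beside 3.27% of 6632 genes called higher, and ITGB4 at 1.74-fold and LAMB3 at 1.45-fold stayed under the limit. In EZH2i LAMA3 and ITGA6 were called as well, beside 8.93% of 7414 genes called higher, LAMA3 at 4.45-fold (counting interval 4.30 to 4.62) and ITGA6 at 3.31-fold (3.20 to 3.43), while LAMB3 was 1.91-fold and ITGB4 1.28-fold higher. Counting error was therefore small beside each of these differences, but the difference between tumors of one treatment is not known. Among the 7414 genes tested in EZH2i, 0.45% had a larger positive difference than LAMA3. Both comparisons use the same vehicle library, so a low value there would show in both.

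With the GC and length trend removed, the EZH2i differences of LAMA3 and ITGA6 were 1.81 and 1.23 on the log2 scale, against 2.15 and 1.73 as deposited, and both remained called. LAMB3, whose transcript has 59.5% GC, went the other way, from 0.94 to 1.15, and passed the limit, and ITGB4, at 63.6% GC, went from 0.36 to 0.58. In CDK2i, ITGB4 moved most of the 4, from 0.80 to 0.60. The median over the 4 was 1.03 in CDK2i and 1.33 in EZH2i on the log2 scale, beside -0.11 and 0.19 over all expressed genes, and all 4 kept their direction under every scaling, pseudocount and trend setting tried. The 4 basal epithelial markers would vary with the amount of basal tumor cells. They summed to 4968, 12026 and 4668 FPKM in vehicle, CDK2i and EZH2i, nearly all from KRT5, KRT14 and KRT17. The 4 did not move alike in EZH2i, at -0.18 for KRT5, 0.05 for KRT14, -0.51 for KRT17 and 1.13 for TP63 on the log2 scale. With the trend removed these were 0.15, 0.635, 0.14 and 0.68. The part of basal cell amount in the differences of the hemidesmosome genes was not tested. In a bulk tumor, fewer cells of a type and less RNA per cell cannot be told apart.

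The start regions of LAMA3, LAMB3 and ITGA6 are printed as those of the hemidesmosome genes that had a start window. The letters bound by AP-1, a transcription factor family, are marked where present. Windows from 250 bases before to 50 after each start site came from RefSeq (GRCh38.p14), in which 26 of the 37 genes had 33 windows and 11 had none, ITGB4 among them. The 150 bases before the start are given 5′ to 3′ on the strand of the gene, with the AP-1 letters TGANTCA, which read the same way on both strands, in capitals. The LAMA3 stretch (chr18:23872870-23873019, plus strand) lies inside the gene, at a start that 2 of 15 annotated transcripts use. The LAMB3 stretch (chr1:209651375-209651524, minus strand) precedes a start that 2 of 5 transcripts use, and the ITGA6 stretch (chr2:172427436-172427585, plus strand) one that 5 of 12 use.
LAMA3: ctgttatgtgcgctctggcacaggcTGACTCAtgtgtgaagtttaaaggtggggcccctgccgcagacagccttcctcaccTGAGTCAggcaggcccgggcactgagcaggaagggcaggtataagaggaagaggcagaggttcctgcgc
LAMB3: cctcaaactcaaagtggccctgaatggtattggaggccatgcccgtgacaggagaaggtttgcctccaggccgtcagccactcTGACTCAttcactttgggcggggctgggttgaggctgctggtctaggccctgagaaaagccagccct
ITGA6: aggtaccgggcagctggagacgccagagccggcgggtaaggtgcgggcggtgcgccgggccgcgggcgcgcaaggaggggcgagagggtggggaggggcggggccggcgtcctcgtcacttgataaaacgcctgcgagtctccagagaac
LAMA3 held 2 such motifs, which began 125 and 69 bases before the start, and LAMB3 held 1 that began 67 bases before it. The letters were absent from both ITGA6 windows and from the other 2 LAMB3 windows. Among the other members only ITGA5 had them, beginning 6 bases before its start. Thus 3 of 26 members held the motif (11.5%), near the share of all genes in the RefSeq table, 2558 of 27305 (9.37%). The GC box letters GGGCGG, read on both strands, were in 14 of the 26 members and in 48.3% of all genes. No binding was measured here.

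The LAMA3 and LAMB3 chains of laminin-332 were present in unequal amounts, and this imbalance was smaller in the treated tumors. The FPKM of LAMA3 was 0.055 of that of LAMB3 in vehicle, 0.091 in CDK2i and 0.13 in EZH2i, ratios that depend on the gene lengths used. The difference LAMA3 minus LAMB3 was thus 0.72 higher on the log2 scale in CDK2i and 1.22 higher in EZH2i, or 0.68 and 0.66 with the trend removed. A trimer needs 1 of each, and LAMA3 was the scarcer of the pair in every tumor. On the receptor side ITGA6 was 0.27, 0.38 and 0.69 of ITGB4, and the shift of 1.37 in EZH2i on the log2 scale was 0.64 with the trend removed.

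The other expressed laminin chains varied, and some of their differences overlapped those of the hemidesmosome genes. LAMA5, the α5 chain of the widespread basement membrane trimers with β1 or β2 and γ1, was at log2 FPKM 5.99, 6.80 and 6.12. That was 1.75-fold higher in CDK2i and 1.09-fold in EZH2i, where the sign turned to -0.13 on the log2 scale when each library was centred on its median. LAMC1, the γ1 chain of nearly every laminin outside laminin-332, was at 3.72, 4.48 and 4.76, which was 1.70-fold higher in CDK2i and, at 2.06-fold, called in EZH2i. LAMB1, the β1 chain, was at 3.69, 3.91 and 4.58. With the trend removed the LAMC1 difference in EZH2i was 0.68 on the log2 scale and no longer called. LAMB2, the β2 chain of muscle, kidney and nerve basement membranes, was at 6.15, 6.18 and 5.72 and was the only expressed laminin chain below vehicle in EZH2i, by 0.42 on the log2 scale, or 0.29 with the trend removed.

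As a result the make-up of the laminin transcripts differed between libraries. LAMA3 was 18.9% of the summed FPKM of the 5 α chains in vehicle, 24.1% in CDK2i and 48.5% in EZH2i, while LAMA5 was 80.2%, 74.9% and 50.3%. With the trend removed, the LAMA3 share was 28.2% in CDK2i and 39.8% in EZH2i. LAMB3 was 76.6%, 81.9% and 87.2% of the β chains. LAMA3 and LAMB3 thus took a larger share of their own class in both treated tumors. The sums themselves were 79.6, 149 and 138 FPKM for α chains and 357, 483 and 600 for β chains.

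**Figure D2:**
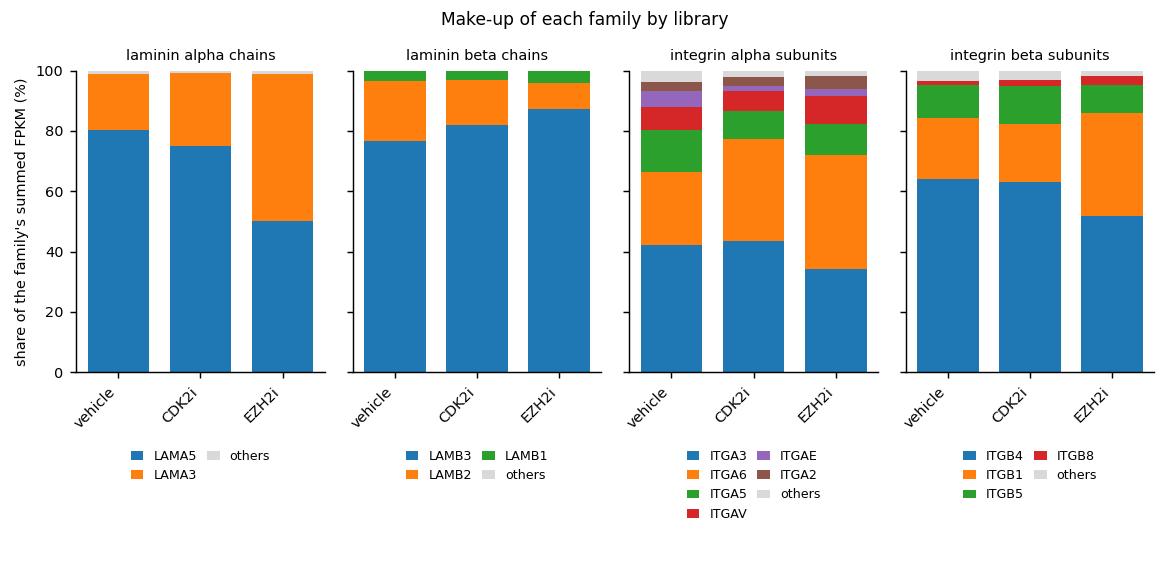
Share of each gene in the summed FPKM of its class (vertical axis, percent), with 1 bar per library and genes under 3% in every library pooled as others. LAMA3 grows from 18.9% to 48.5% of the laminin α chains between vehicle and EZH2i, and ITGB1 from 19.99% to 34.0% of the integrin β subunits.

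The 5 remaining laminin genes were near 0. LAMA4 of vessels and fat was at log2 FPKM -0.71, -0.11 and 0.03, LAMA2 of muscle at -4.53, -3.83 and -3.59, and LAMA1 of the early embryo at -3.05, -1.44 and -0.77. LAMA1 rested on about 21, 73 and 107 fragments, a 3.05-fold difference in CDK2i (counting interval 1.86 to 5.22) and 4.88-fold in EZH2i (3.04 to 8.21) at levels below 1 FPKM. LAMB4 and LAMC3 were at 0 to 2 fragments in each library. The α and β chain transcripts of these tumors were therefore those of α3, α5 and β1 to β3, and Matrigel, the mouse basement membrane extract that the cells were injected with, contributes protein and not these transcripts.

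Among the other epithelial integrins, all 7 were higher in both treated tumors than in vehicle. Of the 6 that could pass the expression limit, 2 were called in CDK2i and 4 in EZH2i, beside 3.27% and 8.93% of all genes tested. Without the trend 2 were called in CDK2i and 1, ITGB1, in EZH2i. ITGB1, the subunit shared by most matrix receptors, was at log2 FPKM 5.47, 6.25 and 6.90, a 2.70-fold difference in EZH2i that was called. ITGA3, which pairs with β1 to bind laminin-332 and laminin-511, was at 6.05, 6.93 and 6.83, or 1.83-fold higher in CDK2i and 1.71-fold in EZH2i, and was not called. ITGA2, the α subunit of the collagen receptor α2β1, was at 2.25, 3.03 and 3.83, 2.98-fold higher in EZH2i. By deposited level the laminin receptor subunits ranked ITGB4, ITGA3, ITGB1 and ITGA6 in vehicle, and in EZH2i ITGB4, ITGA6, ITGB1 and ITGA3. Both orders depend on the gene lengths used, which are not given. In EZH2i ITGA6, ITGB1 and ITGA3 lay within 0.16 of each other on the log2 scale. No error was available for differences between genes of 1 library, so their order there is left unresolved. That order also rests on the trend over GC content and length. The difference ITGA6 minus ITGA3, which was -0.80 in vehicle, shifted by 0.95 in EZH2i as deposited and by 0.26 with the trend removed, which leaves ITGA3 above ITGA6.

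The αV group binds RGD ligands, and αVβ6 and αVβ8 release active TGF-β from its latent complex. ITGAV was at log2 FPKM 3.59, 4.19 and 4.95, a 1.52-fold difference in CDK2i and a called 2.58-fold one in EZH2i. ITGB5, the most abundant β partner of αV apart from β1, was at 4.60, 5.61 and 5.02. It was the only member called in CDK2i alone, at 2.01-fold (counting interval 1.92 to 2.10), with 1.34-fold in EZH2i. Its CDK2i value was just past the limit, and the call was kept in 4 of 6 alternative settings. ITGB8 was at 1.81, 3.02 and 3.46, called in both at 2.31-fold and 3.16-fold, with its CDK2i value just above the expression limit. ITGB6 stayed low at -1.08, -0.29 and 0.09. ITGB3, the αV partner of vessels and platelets, had 0, 1 and 2 fragments.

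The EZH2i calls of several integrins depended on the joint trend over transcript GC content and length. The 16 expressed members had a median transcript length of 5754 bases, against 3137 over expressed genes. Of the 16 expressed members, 5 had less than 45% GC (ITGA2, ITGA6, ITGAV, ITGB1 and ITGB8), and all 5 were called higher in EZH2i as deposited, against 2 of the 11 with 45% GC or more. With the trend removed, the differences on the log2 scale were 1.23 for ITGA6, 1.00 for ITGB1, 0.98 for ITGB8, 0.95 for ITGA2 and 0.72 for ITGAV, so that ITGA6 and, narrowly, ITGB1 remained called. All 5 were still higher than in vehicle. What the trend came from, and how much of it goes with GC content or with length, was not tested.

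**Figure D3:**
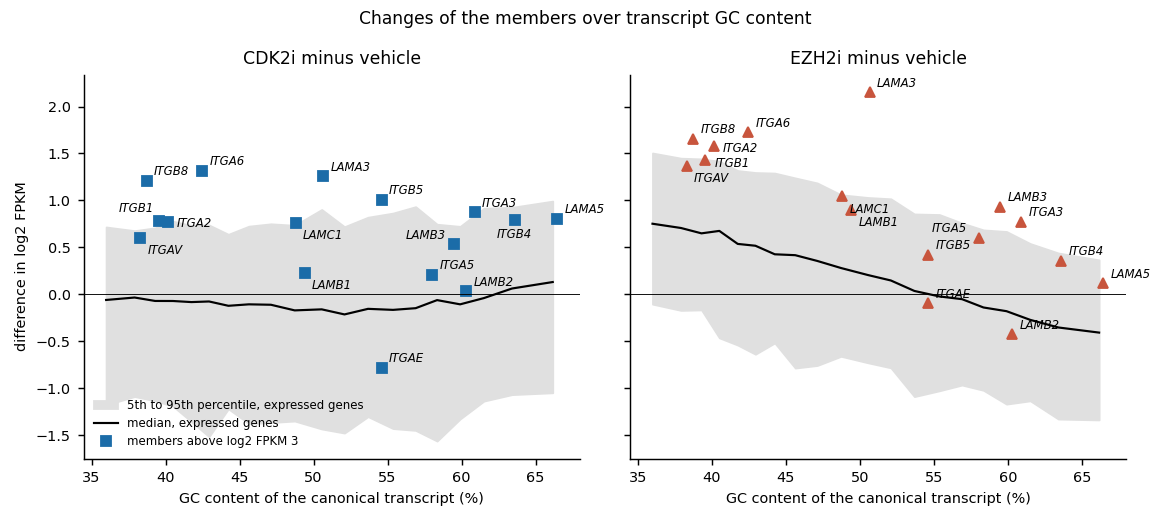
Difference in log2 FPKM from vehicle (vertical axis) against the GC content of the canonical transcript (horizontal axis, percent) for the 16 expressed members, over the median and the 5th to 95th percentile of all expressed genes in 20 bins. The median of all genes slopes down with GC content in EZH2i and is nearly level in CDK2i, and ITGAV, ITGB1 and ITGA2 lie close to the upper edge of the band in EZH2i, while LAMA3 lies well above it.

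The subunit shares, which also depend on the gene lengths used, followed the same lines. ITGA3 was 42.1% of the summed FPKM of the 18 α subunits in vehicle, 43.4% in CDK2i and 34.1% in EZH2i, and ITGA6 was 24.2%, 33.9% and 38.0%. Among the 8 β subunits, ITGB4 was 64.2%, 62.9% and 51.8% and ITGB1 19.99%, 19.5% and 34.0%. In EZH2i the trend-removed shares were 43.5% for ITGA3, 29.9% for ITGA6, 61.2% for ITGB4 and 25.4% for ITGB1. The larger ITGA6 share was therefore found in both treated tumors under either treatment of the values, whereas a smaller ITGA3 or ITGB4 share in EZH2i was found without the correction and was at most slight with it.

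Integrins known from leukocytes were low. ITGAE, which pairs with β7 to bind E-cadherin, was at log2 FPKM 3.04, 2.26 and 2.94, about 910, 604 and 888 fragments, and was the only one above 3. It was 0.58-fold of vehicle in CDK2i (counting interval 0.52 to 0.65) and 0.93-fold in EZH2i, where the direction turned when summed FPKM was made equal. ITGB7 was at 2.38, 2.94 and 1.83, but 42.3% of its exonic bases also lie in ZNF740 on the other strand, and ZNF740 stood at 3.49, 2.22 and 3.43. Without strand information, which was not given in the sources used here, reads of such a pair cannot be told apart. For ITGAE, 6.47% of exonic bases were shared with another gene, HASPIN.

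ITGB2, the common β subunit of leukocytes, was at log2 FPKM 0.77, 1.99 and 0.70, a 2.33-fold difference in CDK2i (counting interval 1.99 to 2.75) on about 209 and 556 fragments. It was the only member below the expression limit and above log2 FPKM 1 that differed from vehicle by more than 2-fold. None of its α partners was higher with it. ITGAM of myeloid cells was at 1.62, 1.57 and 0.95, ITGAX of dendritic cells and macrophages at -1.50, -3.49 and -2.46, and ITGAL of lymphocytes at -2.87, -5.64 and -6.51. ITGAL rested on 12, 2 and 1 fragments, which gave 0.15-fold in CDK2i with a counting interval of 0.016 to 0.66, and ITGAX on 28, 8 and 15. ITGA4 was at -0.46, -0.08 and -0.18, and ITGAD had 2 fragments at most. The 5 leukocyte markers summed to 0.69, 0.58 and 0.46 FPKM, with no higher value in CDK2i.

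The stromal, vascular, muscle and platelet integrins held 1 expressed gene, ITGA5, the α subunit of the fibronectin receptor α5β1, at log2 FPKM 4.48, 4.69 and 5.09. It was 1.16-fold higher in CDK2i and 1.52-fold in EZH2i, 0.60 on the log2 scale and 0.74 with the trend removed, and was not called. The other 8 were below log2 FPKM 1 in every tumor, between 1.54 and 2.57 FPKM in sum. ITGA1, the collagen receptor subunit of fibroblasts and smooth muscle, was at -2.69, -2.51 and -0.68, about 48, 62 and 203 fragments, and so 4.01-fold higher in EZH2i (counting interval 2.94 to 5.67) at 0.62 FPKM. ITGA2B of platelets had 11, 4 and 9 fragments and ITGA8, of smooth muscle and kidney stroma, 0, 0 and 2. ITGA10 was at -1.88, -1.23 and -0.70, ITGA7 of muscle at -0.21, 0.54 and 0.09, and ITGA9 and ITGA11 had 5 fragments at most. Of the markers of these cell types, the 3 smooth muscle genes summed to between 0.34 and 0.85 FPKM, while the 6 fibroblast genes were not near 0, at the 24.4, 38.3 and 28.8 FPKM given above. LUM, 1 of 2 fibroblast genes that could pass the expression limit in CDK2i, was called higher there, beside 3.27% of all genes tested. The 6 fibroblast genes did not move alike in CDK2i, with 3 higher and 3 lower than in vehicle. The lower ones were COL3A1 at -1.44, DCN at -0.70 and PDGFRB at -0.19 on the log2 scale. The part of host or stromal cells in the ITGA1 and ITGA5 values was not tested.

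In all, CDK2i had 4 of the 16 tested members called higher (ITGA6, ITGB5, ITGB8 and LAMA3) and 0 lower, beside 3.27% and 8.07% of the 6632 genes tested. EZH2i had 7 called higher (ITGA2, ITGA6, ITGAV, ITGB1, ITGB8, LAMA3 and LAMC1) and 0 lower, beside 8.93% and 4.42% of 7414 genes. With the trend removed these were 4 and 0 in EZH2i (ITGA6, ITGB1, LAMA3 and LAMB3), beside 3.75% and 1.96%, and 4 and 0 in CDK2i, beside 3.13% and 6.7%. No test of these shares was made. Over the 34 of 37 members with no value at 0, the median difference was 0.63 in CDK2i, and over 35 it was 0.77 in EZH2i. By size, 9 of the 16 differences in CDK2i and 10 in EZH2i exceeded the spread of genes of like level, which itself holds drug effects. That spread is the SD of another comparison, EZH2i minus CDK2i. The share of all genes that exceed it was not counted, so these counts cannot be read as an excess.

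**Figure D4:**
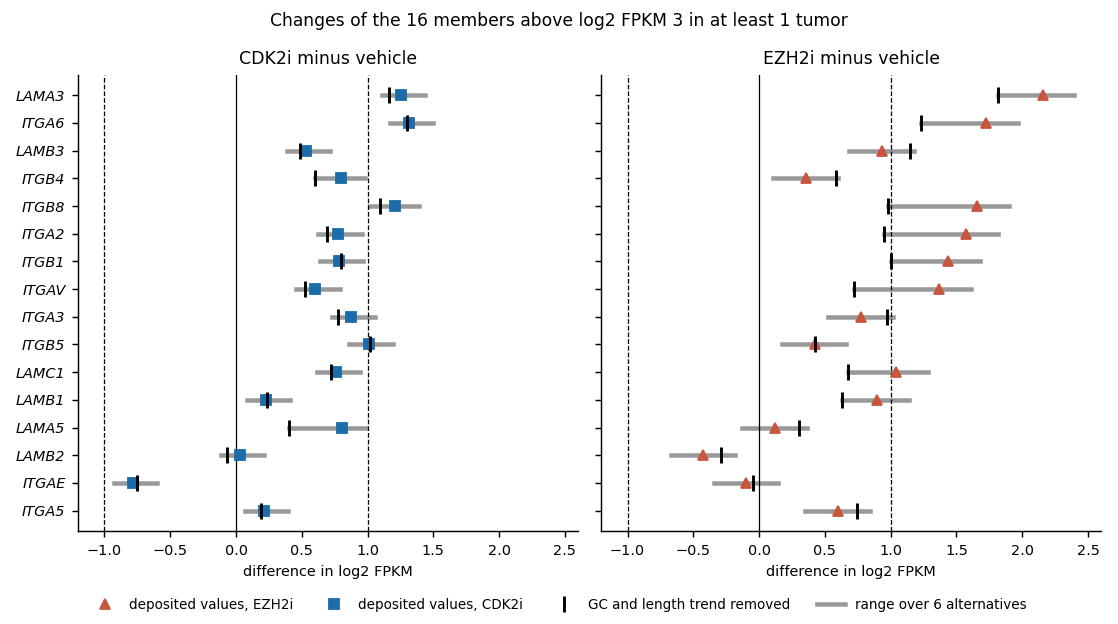
Difference in log2 FPKM from vehicle (horizontal axis) for the 16 expressed members in CDK2i and EZH2i, with the value after removal of the GC and length trend (black tick) and the range over 6 alternative settings (grey bar). Dashed lines mark a 2-fold difference. LAMA3 and ITGA6 stay beyond it in both tumors at every setting, and LAMB2 and ITGAE are the genes with a deposited difference below 0.

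Set directly against each other, the treated tumors differed in no member past the limits, although more genes of the whole table were called than in either comparison with vehicle. In EZH2i against CDK2i, 0 of the 15 tested members were called higher and 0 lower, beside 17.5% and 6.53% of 7394 genes, and with the trend removed again 0 and 0, beside 14.1% and 3.48%. Median centring of the deposited values brought the number of members called to 3. The largest differences among the 16 expressed members were 0.90 for LAMA3, 0.80 for ITGA2 and 0.76 for ITGAV toward EZH2i, and -0.68 for LAMA5, -0.58 for ITGB5 and -0.46 for LAMB2 toward CDK2i, all on the log2 scale. With the trend removed, the largest were 0.71 for ITGAE, 0.66 for LAMB3, 0.65 for LAMA3 and -0.60 for ITGB5, and ITGA6 was at -0.07.

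The proteins that work with these genes were read from lists of partners. Of 6 hemidesmosome partners in the table, 5 could pass the expression limit in CDK2i and all 6 in EZH2i. In CDK2i 3 of the 5 were called higher, beside 3.27% of all genes tested. These were KRT5 and KRT14, the keratin pair of basal cells, and COL17A1, the transmembrane collagen of the hemidesmosome, at log2 FPKM 5.57, 6.59 and 6.26. In EZH2i 2 others were called higher, beside 8.93% of all genes tested, PLEC, the keratin linker plectin, at 6.53, 7.27 and 7.57, and DST, the second keratin linker, at 2.31, 2.67 and 3.67. CD151, the tetraspanin that accompanies α6β4, was at 7.68, 7.39 and 7.14, and its EZH2i difference of -0.55 on the log2 scale was 0.08 with the trend removed. With the trend removed PLEC remained called in EZH2i at 1.23, while DST at 0.79 in EZH2i and COL17A1, just under the limit at 1.00 in CDK2i, did not. This left 1 of 6 called in EZH2i and 2 of 5 in CDK2i.

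Of 13 basement membrane genes, 6 could pass the expression limit in EZH2i and 5 in CDK2i. Of these, 3 were called higher in EZH2i and 0 in CDK2i, beside 8.93% and 3.27% of all genes tested. COL4A1 and COL4A2, which encode the main network collagen, were at log2 FPKM 3.06, 3.75 and 4.82 and at 4.90, 5.53 and 5.99, and COL4A5 was at 2.42, 2.36 and 3.53. COL4A1 and COL4A5 were also called higher in EZH2i set directly against CDK2i, as 2 of 6 genes tested, beside 17.5% of all genes tested. COL4A5 lost both calls, at 0.86 against vehicle and 0.92 against CDK2i on the log2 scale with the trend removed, and COL4A1 kept both. COL7A1, the anchoring fibril collagen that binds laminin-332, was at 5.64, 6.52 and 6.52, and its EZH2i difference of 0.87 was 1.04 and called with the trend removed. AGRN and HSPG2, the basement membrane proteoglycans, were at 7.06, 7.78 and 7.08 and at 3.04, 3.96 and 3.64. NID1, which links laminin to collagen IV, was at 1.53, 2.48 and 1.63. The median of the 13 was 0.70 in CDK2i and 0.98 in EZH2i on the log2 scale, beside -0.11 and 0.19 over all expressed genes. With the trend removed it was 0.47 and 0.73, and with a pseudocount of 1 it was 0.51 and 0.55. The median includes genes that stayed under the expression limit in every tumor.

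Inside the cell, FERMT1, which encodes the epithelial integrin activator kindlin-1, was at log2 FPKM 3.45, 4.55 and 5.38 and was called in both tumors. Of 30 adhesion components, 18 could pass the expression limit in CDK2i and 20 in EZH2i. In CDK2i FERMT1 was the only one called higher, beside 3.27% of all genes tested. TNS4 (5.21, 3.21 and 5.84), a tensin of epithelial tumors, and BCAR1 (4.34, 3.27 and 4.73), an adaptor of focal adhesions, were called lower there, beside 8.07%. In EZH2i, PXN (3.75, 4.29 and 5.08), VCL (3.73, 4.58 and 4.81) and TNS3 (2.14, 1.76 and 3.48) joined FERMT1, beside 8.93% of all genes tested, and none was called lower. VCL was no longer called at 0.81 on the log2 scale with the trend removed, and the other 3 remained called. TLN1, the talin that binds the β tail, was at 3.27, 3.94 and 3.98 and passed the limit in neither.

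Among other ligands, 11 were in the table and 6 could pass the expression limit. In EZH2i TNC (5.16, 5.34 and 6.57), THBS1 (4.94, 5.90 and 6.01) and LTBP1 (2.90, 3.80 and 4.38) were called higher, beside 8.93% of all genes tested. FN1, the ligand of α5β1, was at 6.95, 7.35 and 7.14. THBS1 was no longer called at 0.60 on the log2 scale with the trend removed, which left 2 of the 6. LTBP1 anchors the latent TGF-β that αVβ6 and αVβ8 act on, and TGFB1 itself was at 5.06, 5.31 and 5.27. BCAM, a receptor for the α5 chain, was the only one of 4 other laminin receptors called, lower in EZH2i at 6.41, 6.80 and 5.17, beside 4.42% of all genes tested, but at -0.65 on the log2 scale and uncalled with the trend removed. Of 6 proteases that process laminin-332 or act beside it, 5 could pass the expression limit. PLAU, the urokinase, was the only one called, higher in both tumors at 4.25, 5.49 and 6.32. The share of all genes tested called higher was 3.27% in CDK2i and 8.93% in EZH2i. The metalloproteases MMP14 and BMP1 were at 5.48, 5.98 and 5.86 and at 4.24, 4.18 and 4.67. In EZH2i against CDK2i, calls were not confined to the basement membrane list. Of 6 hemidesmosome partners tested 1 was called higher and 2 lower, and of 20 adhesion components 4 and 1. Of 6 other ligands 1 was called higher, and of 4 other laminin receptors 1 lower. The shares of all genes tested were 17.5% higher and 6.53% lower.

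**Figure D5:**
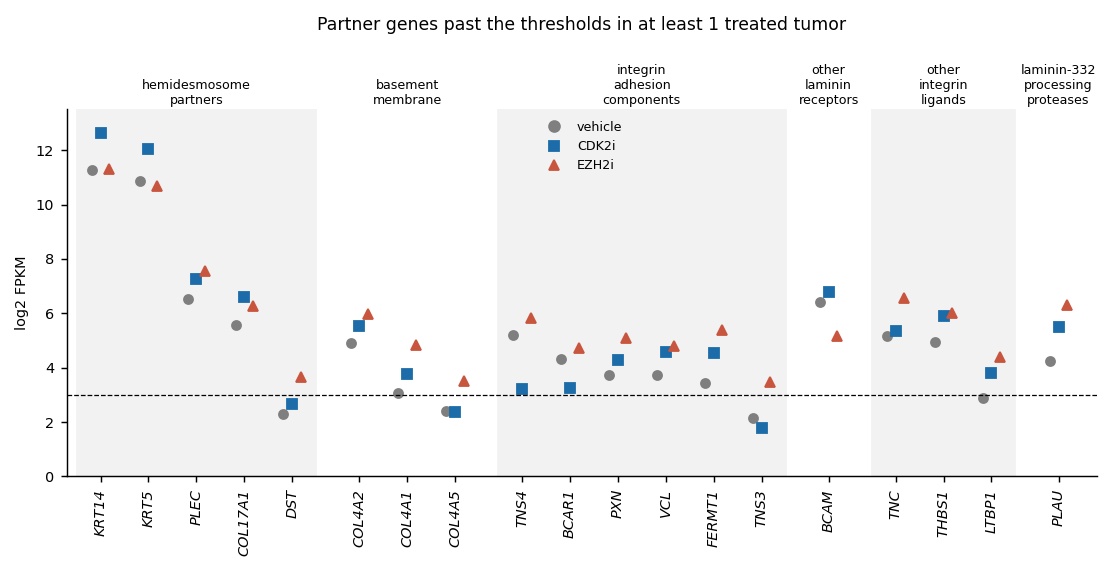
Level (log2 FPKM, vertical axis) in each of the 3 tumors of the 19 partner genes called in at least 1 treated tumor, grouped by list, with 1 point per library and a dashed line at log2 FPKM 3. FERMT1 and PLAU are above vehicle in both treated tumors, KRT5 and KRT14 stand apart in CDK2i, and TNS4 and BCAR1 are lowest in CDK2i.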

How the data were processed

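The deposited table held log2 FPKM of 3 libraries, with -9 where FPKM was 0. Per the labels and the methods of the study, total RNA was sequenced with standard Illumina libraries. The submitters' processing notes name CASAVA, STAR and hg19, and the counting tool, gene lengths and strand setting are not given in the sources used here. The log2 values were used as the authors deposited them. The design foresaw differences without a test, because each group was 1 library. Members, groups and partner lists were chosen with earlier results of these data known. Every member above log2 FPKM 3 in at least 1 tumor was named, other members where they define a cell type, differ by over 2-fold above log2 FPKM 1 or bear on a receptor or trimer named, and partner genes where past the limits or a direct partner. Called means above 2-fold with the higher value above log2 FPKM 3. GENCODE 44 on GRCh37 gave positions, GC content and lengths (all 37 members described and 85.3% of expressed genes matched). The trend over GC content and log2 length was a polynomial (degree 3) fitted to 9397 genes, with the mean kept. Fragment numbers came from the step that 1 fragment makes in weak genes, whole numbers for the weakest and approximate for others. The spread is the SD of EZH2i minus CDK2i over the 200 genes nearest in mean level. Expressed means a mean log2 FPKM above 1. Alternatives were median centring, equal summed FPKM (all genes, or leaving out ribosomal protein and mitochondrial genes), pseudocounts of 1 and 0.1 FPKM, folds of 1.5 and 3, and expression minimums of 1, 5 or none. A member and a marker gene are not reported here. Integrin protein tails were not analysed here. Scripts, tested on simulated data, used Python 3.11.15, pandas 2.3.3 and scipy 1.17.1.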

Additional observations from a re-analysis of the deposited data

How the results depend on the processing

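With 1 library per group the differences carry no test, and replicates could not be left out. No paired analysis was possible because each group held 1 library and no replicate numbers were shared. Members past the limits numbered 4 in CDK2i against vehicle, 12 with a fold of 1.5, 0 with a fold of 3, 12 with no expression minimum and 2 with equal summed FPKM without ribosomal protein and mitochondrial genes. In EZH2i against vehicle the number was 7, with 11 at a fold of 1.5, 3 at a fold of 3, 16 with no minimum, 3 with a minimum of log2 FPKM 5 and 4 with the trend removed. In EZH2i against CDK2i it was 0, with 7 at a fold of 1.5, 10 with no minimum, 2 with a minimum of 1, 3 with median centring and 1 under either equal sum. The moves with another fold or minimum follow from the looser or stricter limit, and those under scaling from the common shift it gives every gene of a library.

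Medians moved for the other laminin chains in EZH2i against vehicle, to 0.12 and 0.35 with pseudocounts of 1 and 0.1, and for the stromal group in EZH2i against CDK2i, to 0.077 with a pseudocount of 1. In EZH2i against CDK2i, median centring turned the median of all members to -0.042, of the hemidesmosome genes and of the 16 expressed members to -0.025 each, and of the other laminin chains to -0.25, which was -0.073 with the trend removed. Median centring also turned LAMA5 in EZH2i against vehicle to -0.13 and, in EZH2i against CDK2i, ITGA5 to -0.042, ITGA6 to -0.02, LAMB3 to -0.029 and LAMC1 to -0.15. Equal sums turned ITGAE in EZH2i against vehicle to 0.14 and, without ribosomal protein and mitochondrial genes, LAMB2 in CDK2i to -0.11 and ITGA3 in EZH2i against CDK2i to 0.081. Removing the trend turned LAMB2 in CDK2i to -0.07 and, in EZH2i against CDK2i, ITGA3 to 0.19, ITGA6 to -0.071, ITGB8 to -0.12, LAMC1 to -0.048 and LAMA3 minus LAMB3 to -0.011. The cause was not tested. The other 416 values kept their direction and stayed within the tolerance used, a factor of 1.5 for counts and for medians and the spread for single genes. That tolerance is wide for small medians, and the median of all members in EZH2i against vehicle, 0.77, was 0.33 with a pseudocount of 1.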

Other observations

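Several members lie beside each other in the genome and differed in level. On chromosome 5 (GRCh37), ITGA1 (52083750 to 52255039) and ITGA2 (52285170 to 52390609) are 30.1 kb apart, and ITGA2 was 30.7 times ITGA1 in vehicle, 46.5 times in CDK2i and 22.8 times in EZH2i on the FPKM scale. The PELO gene, which shares 2.69% of the exonic bases of ITGA1, was at log2 FPKM 2.05, 0.71 and 2.22, far above ITGA1 itself. On chromosome 16, ITGAM, ITGAX and ITGAD follow each other with gaps of 22.2 and 10.3 kb, and ITGAM alone was above log2 FPKM 0.

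SPP1, which encodes the integrin ligand osteopontin, was at log2 FPKM -0.10, -3.99 and -3.87 in the 3 tumors in the same order, and was chosen here after its values were seen. KANK1, a focal adhesion protein, was at -0.13, 0.66 and 2.38, and TLL1, a protease of the BMP1 family, at -0.82, -0.33 and 1.74, both under the expression limit, and both chosen likewise.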
